A study of Mus musculus with 98 samples.

Results

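The 8 genes described here carry out antigen presentation by major histocompatibility complex (MHC) class II: H2-Aa, H2-Ab1, H2-Eb1, Cd74, Ciita, H2-DMa, H2-DMb1 and H2-Oa. They were chosen by name as genes of 1 pathway, with earlier results of these data known. All 8 were present among the 39179 gene entries of the bulk RNA sequencing table, the 22231 genes of the single-cell age series and the 20760 genes of the single-cell data from newborns. The study profiled mouse thymic stroma in 98 samples. In bulk, 6 libraries each came from sorted wild-type C57BL/6 populations: cortical and medullary thymic epithelial cells (cTEC and mTEC), CD31+ endothelial cells, Ly51+gp38- cells (the pericyte phenotype) and the gp38+CD26+ and gp38+CD26- fibroblast phenotypes, all at P0 and 4 weeks, and mTEChi and mTEClo at 4 weeks. The single-cell age series held live Ter119-CD45-EpCAM- cells of wild-type mice, termed non-epithelial thymic stroma (NETS), in 8 libraries of which E12.5 gave 1, E13.5 gave 1, and each of E16.5, P0 and 4 weeks gave 2. The newborn single-cell data compared Ter119-CD45- cells, epithelium included, of 3 Tbx1+/-Crkl+/- and 3 wild-type (WT) littermate thymi at P0. The mutants carried 1 lacZ-disrupted Tbx1 allele and 1 germline null Crkl allele in every cell, so that an effect in a given cell type need not have arisen in that cell type, and the newborn cells were fixed before droplet capture whereas the age series was not.

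Class II molecules are alpha-beta pairs that hold peptides on the cell surface for CD4 T cells. H2-Aa and H2-Ab1 encode the 2 chains of I-A and H2-Eb1 the beta chain of I-E, whose alpha chain is not functional in C57BL/6 mice. Cd74 encodes the invariant chain, which blocks the groove until proteases remove it, and H2-DM then exchanges the remaining fragment for peptide while H2-O restrains H2-DM. Ciita encodes the coactivator that RFX, CREB and NF-Y proteins recruit to class II promoters. In most tissues constitutive class II belongs to haematopoietic antigen-presenting cells, and thymic epithelium is the classical exception, since cTEC use it for the positive selection of CD4 cells and mTEC for their tolerance.

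In the GRCm38 annotation, 6 of the 8 genes lie on chromosome 17: H2-Oa at chr17:34092340-34095234, H2-DMa at chr17:34119541-34139101, H2-DMb1 at chr17:34153072-34160230, H2-Ab1 at chr17:34257689-34269419 and H2-Eb1 at chr17:34305867-34316674 on the plus strand, and H2-Aa at chr17:34282744-34287823 on the minus strand. Ciita lies at chr16:10480059-10528418 on the plus strand. Promoters of 300 bases, from 250 bases before to 50 after the transcription start in RefSeq (GRCm38.p6), were at hand for H2-Aa, H2-Eb1, H2-DMa, H2-DMb1 and H2-Oa. The stretches below are shown because these genes were all highest in thymic epithelium among the populations described next. Capitals mark an X-box core ATGATG or the palindrome TGACGTCA, and the inverted CCAAT box GATTGG (the Y box).
H2-Aa, chr17:34287861-34287909, minus strand: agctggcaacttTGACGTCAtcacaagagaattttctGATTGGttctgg
H2-Eb1, chr17:34305771-34305818, plus strand: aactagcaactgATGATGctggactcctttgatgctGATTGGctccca
H2-DMb1, chr17:34153092-34153140, plus strand: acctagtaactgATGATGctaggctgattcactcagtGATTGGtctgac
H2-Oa, chr17:34092295-34092346, plus strand: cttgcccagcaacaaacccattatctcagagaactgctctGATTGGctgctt
In H2-Aa, H2-Eb1 and H2-DMb1 the upstream element began 25, 24 and 25 bases before the Y box, and the Y box began 49, 60 and 62 bases before the start. H2-Oa held the Y box 44 bases before its start. Neither upstream element started in the 40 bases before that Y box, nor before the Y box of H2-Eb2, a further class II gene. Of the 2 starts of H2-DMa, the promoter of 1 held no Y box. The other held a Y box 199 bases before the start, again with neither element starting in the 40 bases before it. Whether either element stood elsewhere in these promoters was not recorded. Beyond these genes, the same pair of elements stood in the promoters of H2-DMb2 and H2-Ob, which encode partner chains of H2-DM and H2-O. Searched on both strands, GATTGG occurred in 16.1% of 32851 mouse promoters of this length, ATGATG in 11.2% and TGACGTCA in 1.79%, while either upstream element starting at most 40 bases before GATTGG on the same strand occurred in 0.171%. A match describes letters and not binding, and a window without a match says only that these letters are not in it.

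Sequencing depth differed between the data sets. Bulk libraries held 5785352 to 15852166 counts, except gp38+CD26+ replicate 2 at 4 weeks with 25702. The age series held 36208 cells with a median of 10005 to 14031 UMIs per cell and library, and the newborn data 21451 cells with 2391 to 4686. Pairs of libraries shared at most 14 cell barcodes in the age series and 5 in the newborn data. The shallow gp38+CD26+ library had summed fibroblast markers of 2529 CPM (counts scaled to the same library total, 1e6) against 52463 to 57749 in the other 5, and summed TEC markers of 18170 CPM. Replicates 2 and 3 of Ly51+gp38- cells at 4 weeks had summed TEC markers of 1278 and 1225 CPM against 279 to 630 in the others. Results that rest on these libraries are given with and without them. The study's methods describe the newborn libraries as from 3 mutants and 3 WT littermates and the E16.5, P0 and 4-week libraries of the age series as from 2 thymi per age, with thymi of several embryos pooled at E12.5 and E13.5. For the bulk libraries the sources used here do not say whether replicates came from separate animals, so their p-values measure the spread between these samples, which may be technical.

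In mean level over the sorted populations, all 8 genes were highest in thymic epithelium, and the 3 chain genes with Cd74 took a large share of its transcriptome. These 4 genes made up 13.52% ± 0.554 (SD, n = 6) of all gene counts in mTEChi, 6.79% ± 0.828 in mTEClo, 3.97% ± 0.417 in cTEC at P0 and 6.33% ± 0.614 in cTEC at 4 weeks. In CD31+ cells they made up 0.0104% ± 0.00521 at P0 and 0.0740% ± 0.0113 at 4 weeks. Per kilobase of exon in mTEChi, the level of Cd74 was 47610 CPM, that of H2-Ab1 14128, of H2-Aa 3560 and of H2-Eb1 2815, followed by H2-Oa at 542, H2-DMb1 at 313, H2-DMa at 106.6 and Ciita at 20.6. The coactivator was thus the least abundant member by this scale and the invariant chain the most.

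**Figure D1:**
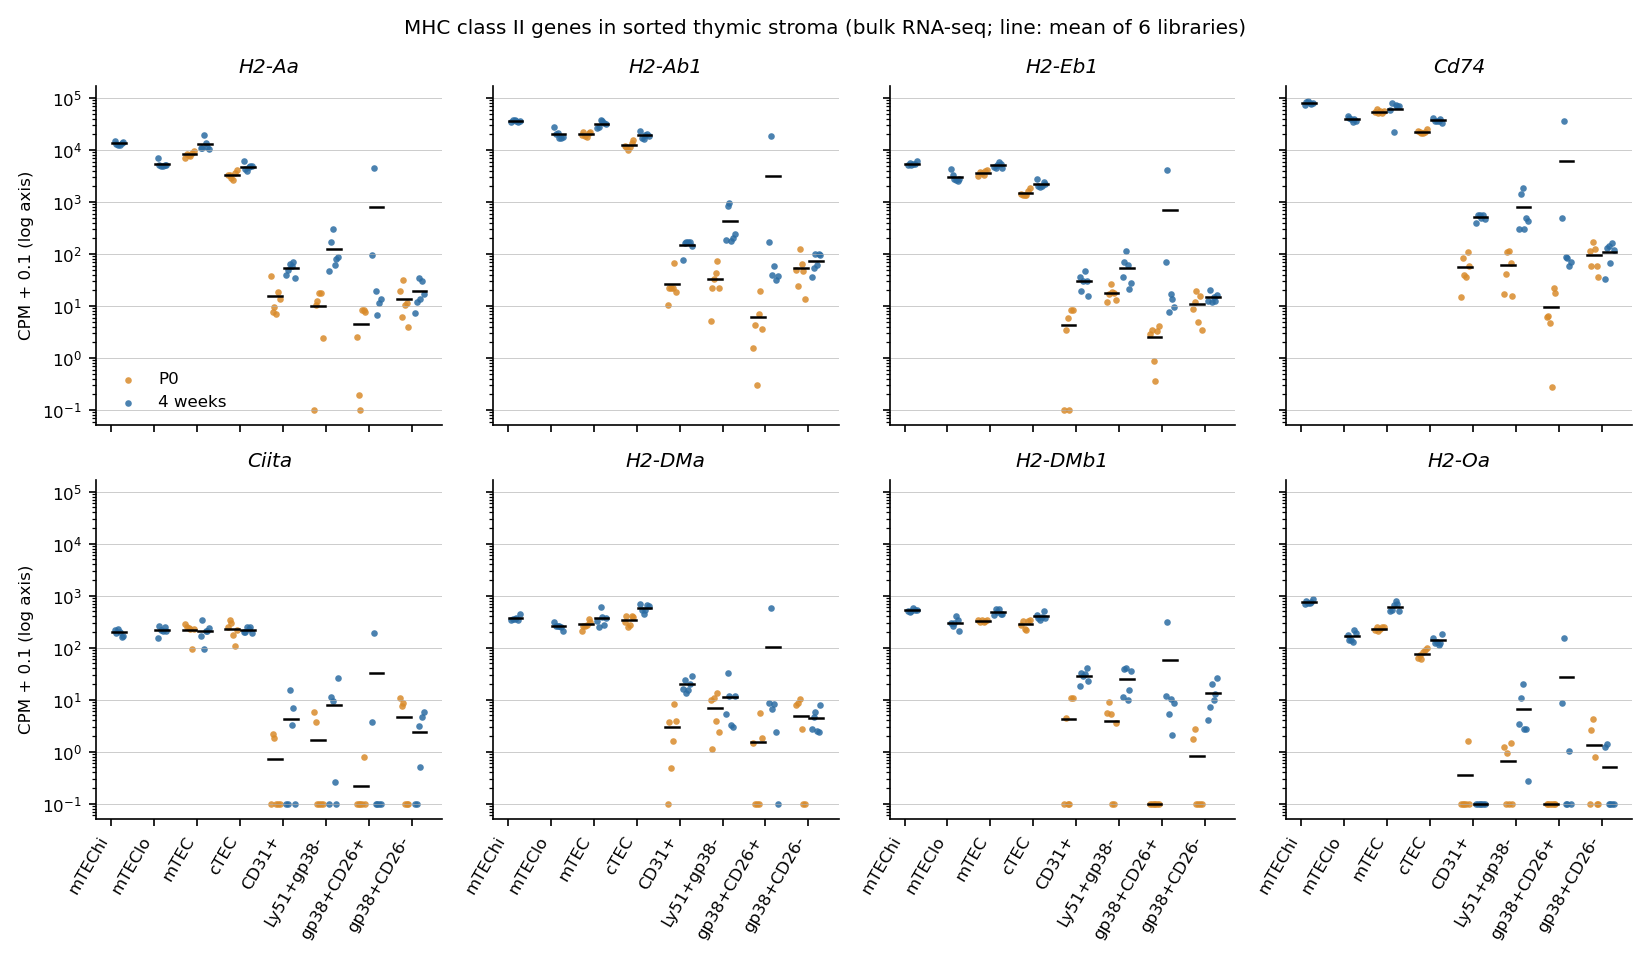
Level of each gene in every bulk library of the 8 sorted populations at P0 and 4 weeks, in CPM plus 0.1 on a log axis; each point is a library and each line the mean of 6. Epithelial populations lie at the top of every panel, and 1 gp38+CD26+ library at 4 weeks, which held 25702 counts, lies near the epithelial level.

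H2-Aa in mTEC ranged from 7083 to 9364 CPM at P0 (median 8175), and in cTEC from 2694 to 4210 (median 3338). In CD31+ cells of the same age it ranged from 6.82 to 37.5 CPM (median 11.7), and in gp38+CD26- cells from 3.81 to 31.2. No epithelial library overlapped a non-epithelial one at P0. Cd74 at P0 ranged from 50793 to 60365 CPM in mTEC, from 20822 to 25283 in cTEC and from 14.9 to 107.3 in CD31+ cells. Ciita ranged from 94.3 to 288 CPM in mTEC and from 109 to 337 in cTEC, against 0 to 2.08 in CD31+ cells and at most 10.8 in any other non-epithelial library at P0.

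All 8 members were higher in TEC (the mean of cTEC and mTEC) than in CD31+ cells at P0, where 23.7% of the genes tested were called higher (edgeR quasi-likelihood test, Benjamini-Hochberg adjusted p under 0.05, 36 libraries). Log2 fold changes ran from 6.12 ± 1.14 (SE) for H2-DMb1 (adjusted p = 7.66e-05) to 9.24 ± 0.74 for Cd74, and their median was 8.66 against 0.26 over all genes tested. Against the gp38+ fibroblast phenotypes at P0 all 8 were again higher, with 24.6% of all genes called higher and a median log2 fold change of 9.47. H2-DMb1 and H2-Oa had a count of 0 in all 6 gp38+CD26+ libraries at P0, and H2-DMb1 also in 4 of 6 gp38+CD26- and 3 of 6 CD31+ libraries. With 3 counts in the shallowest of those libraries as a floor, H2-Oa was at least 218-fold higher in cTEC and at least 660-fold higher in mTEC, and H2-DMb1 at least 806-fold and 936-fold higher.

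At 4 weeks the same held for all 8 members against CD31+ cells (25.7% of all genes called higher) and against the gp38+ phenotypes (24.3%), and also for all 8 without gp38+CD26+ replicate 2. Ciita was higher in TEC than in CD31+ cells by 5.62 ± 1.49 on the log2 scale (edgeR, adjusted p = 0.00299) and H2-DMb1 by 3.85 ± 0.51 (adjusted p = 3.32e-07). H2-Oa was at 0 in all 6 CD31+ libraries of 4 weeks. It was therefore at least 512-fold higher in cTEC and at least 2296-fold higher in mTEC of that age. A lower level in a bulk population cannot be told apart from fewer cells that express the gene.

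Of the non-epithelial populations, CD31+ cells were compared with the gp38+ phenotypes. CD31+ cells exceeded the gp38+ phenotypes for H2-DMb1 alone at P0, 1 of 8 members with 16.9% of all genes called higher, although 3 of the 6 CD31+ libraries were at 0 as well. At 4 weeks H2-DMb1 was called higher in CD31+ cells (1.16 ± 0.43 on the log2 scale, edgeR adjusted p = 0.0386, 12.4% of all genes called higher) and H2-Oa lower (15.9% called lower), although H2-Oa was at 0 in every CD31+ library and at or below 1.29 CPM in 10 of the 12 gp38+ libraries. By DESeq2, and without the filter on low counts, 0 members were called higher. Without gp38+CD26+ replicate 2, the shallow library with epithelial markers, H2-Ab1, Cd74, H2-DMa and H2-DMb1 were called higher in CD31+ cells and H2-Oa lower, 5 of 8 members. The share of all genes called in that fit is not given here, so the added calls need not be particular to the members. Cd74 was then 1.83 higher in CD31+ cells on the log2 scale (edgeR adjusted p = 0.000514), from −0.16 ± 0.74 with all libraries.

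Within the epithelium, mTEC held more of the presenting chains than cTEC but not more Ciita or H2-DMa. At P0, 6 of 8 members were higher in mTEC, with 27.2% of all genes called higher, and at 4 weeks 6 of 8 with 15.8%. With the prefix of the library title as a term, 5 were called at 4 weeks. With a replicate block from the numbers in the titles, added after seeing the data, Cd74 and H2-DMb1 were not called at 4 weeks. The chains and the invariant chain differed in the same range at P0, with log2 fold changes of 1.38 ± 0.11 for H2-Aa (edgeR adjusted p = 2.02e-07), 0.82 ± 0.11 for H2-Ab1, 1.37 ± 0.10 for H2-Eb1 and 1.38 ± 0.07 for Cd74. At 4 weeks H2-Aa differed by 1.52 ± 0.16 and Cd74 by 0.87 ± 0.25 (adjusted p = 0.0198). H2-Oa, the alpha chain of the H2-DM inhibitor, differed most. It ranged from 60.4 to 98.5 CPM in cTEC and from 212 to 253 in mTEC at P0, and from 111 to 183.7 in cTEC and from 503 to 794 in mTEC at 4 weeks. The populations did not overlap at either age, and the log2 fold changes were 1.68 ± 0.14 (adjusted p = 3.40e-07) and 2.27 ± 0.17 (adjusted p = 1.06e-06).

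H2-DMa ran the other way without passing the test. Its mean was 337 CPM ± 71.5 (SD, n = 6) in cTEC and 281 ± 48.8 in mTEC at P0, and 583 ± 94.3 and 375 ± 133 at 4 weeks, where the log2 fold change of mTEC against cTEC was −0.54 ± 0.19 (edgeR adjusted p = 0.0558). Without mTEC replicate 3, a library described below that was picked for its own Cd74 and H2-Aa values, it was −0.72 (adjusted p = 0.00349), so that H2-DMa was then called lower in mTEC. Ciita differed by 0.05 ± 0.26 at P0 (adjusted p = 0.899) and 0.04 ± 0.25 at 4 weeks (adjusted p = 0.934). The ratio of H2-Oa to H2-DMa within each library was 0.234 ± 0.0435 (SD, n = 6) in cTEC and 0.850 ± 0.115 in mTEC at P0, and 0.240 ± 0.0434 and 1.78 ± 0.551 at 4 weeks. Every mTEC library had a higher ratio than every cTEC library of its age. Within TXCK libraries 5 members were called higher in mTEC at each age, and within DFCK libraries 5 at P0 and 3 at 4 weeks.

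The protease genes that trim the invariant chain and antigens split between the compartments. Of the 10 lysosomal processing genes, 5 were higher and 5 lower in mTEC than in cTEC at P0, and 5 higher and 3 lower at 4 weeks, where 16.3% and 9.38% of all genes were called lower at the 2 ages. At P0, Ctss, the cathepsin that removes the invariant chain in most antigen-presenting cells, was 5.67 ± 0.22 higher on the log2 scale (edgeR adjusted p = 2.05e-10). Ctsl, the cathepsin that serves this step in cTEC, was lower by −2.82 ± 0.31 (adjusted p = 3.64e-06). Prss16, a thymus-specific serine protease of cTEC, was lower by −4.42 ± 0.35. Of the 3 other class II genes tested (H2-DMb2, H2-Ob and H2-Eb2), all 3 were higher in mTEC at both ages. None of the 7 promoter factor genes was higher in mTEC at either age. At P0, 2 of them, Rfx5 and Rfxank, were lower, and at 4 weeks 1 of the 7 was lower. At P0, 4 of 4 costimulation genes (Cd80, Cd86, Cd40 and Icosl) were higher. Summed markers of haematopoietic antigen-presenting cells were also higher in mTEC, 981 to 1173 CPM against 3.30 to 13.0 in cTEC at P0, and 610 to 1215 against 108.5 to 377 at 4 weeks, with all 16 genes of that list detected in mTEC, and their part in these results was not tested.

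mTEC of 4 weeks were also sorted into mTEChi and mTEClo. The gate was not given in the sources used here. In this field the names refer to surface MHC class II, and the staining panel held antibodies to MHC class II and CD80, so for the surface chains and for Cd80 the comparison may not be independent of the sort. Antibodies to surface class II do not stain the products of Ciita, the H2-DM genes or H2-Oa. A sort on surface class II may still select cells by these genes and Cd74 where they vary together with the chains. The comparison may therefore not be independent of the sort for any member.

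Of the 8 members, 7 were higher in mTEChi, with 10.2% of all genes called higher. H2-Aa ranged from 12422 to 14649 CPM in mTEChi (median 13456) and from 4982 to 6998 in mTEClo (median 5083), a log2 fold change of 1.52 ± 0.10 (edgeR adjusted p = 2.36e-06). H2-Ab1 ranged from 34272 to 38410 CPM and from 17272 to 27655 (1.03 ± 0.12, adjusted p = 8.60e-05). H2-Eb1 ranged from 5165 to 6025 CPM and from 2538 to 4236 (1.04 ± 0.13, adjusted p = 0.000154). The groups did not overlap for any of the 3 chains. The share of all genes that separated mTEChi from mTEClo in this way is not given here. Cd74 ranged from 73772 to 85872 CPM in mTEChi (median 79927) and from 34942 to 44226 in mTEClo (median 39766), again without overlap (1.22 ± 0.08, adjusted p = 1.15e-06). The median log2 fold change of the 8 was 1.04 against 0.10 over all 15443 genes tested.

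Ciita did not follow its targets. It ranged from 162 to 232 CPM in mTEChi (median 197) and from 157 to 264 in mTEClo (median 217). The groups overlapped almost fully, with a log2 fold change of 0.04 ± 0.13 (edgeR adjusted p = 0.901). H2-Oa stood at the other end. Its 6 mTEChi libraries lay between 698 and 871 CPM and its 6 mTEClo libraries between 130 and 219, and its log2 fold change of 2.38 ± 0.15 (adjusted p = 1.15e-06) was the largest of the 8. The H2-DM genes rose less, H2-DMa from 258 ± 30.96 (SD, n = 6) to 367 ± 36.98 CPM (0.71 ± 0.11, adjusted p = 0.000659) and H2-DMb1 from 302 ± 66.05 to 527 ± 30.3 CPM (1.001 ± 0.14, adjusted p = 0.000268). The ratio of H2-Oa to H2-DMa was accordingly 2.08 ± 0.136 in mTEChi and 0.662 ± 0.181 in mTEClo, without overlap. H2-DMb1 shares 22.7% of its 50-base exon words with its neighbour H2-DMb2, so the split of reads between them is uncertain.

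Titles of the bulk libraries carried 1 of 2 prefixes, TXCK or DFCK, with 3 libraries of each per group and no stated meaning. Within TXCK libraries 7 members were called higher in mTEChi, and within DFCK libraries 6, where H2-DMa was at 0.54 on the log2 scale (edgeR adjusted p = 0.0532). H2-Oa was at 2.35 within TXCK and 2.42 within DFCK libraries, and Ciita at −0.12 and 0.19. In a single fit over all 84 bulk libraries, H2-Oa alone stayed past the threshold between mTEChi and mTEClo, and the same fit called no member between mTEC and cTEC at P0, 1 at 4 weeks, and none with age in cTEC or mTEC. Shares of all genes called within a prefix or in the single fit are not given here.

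**Figure D2:**
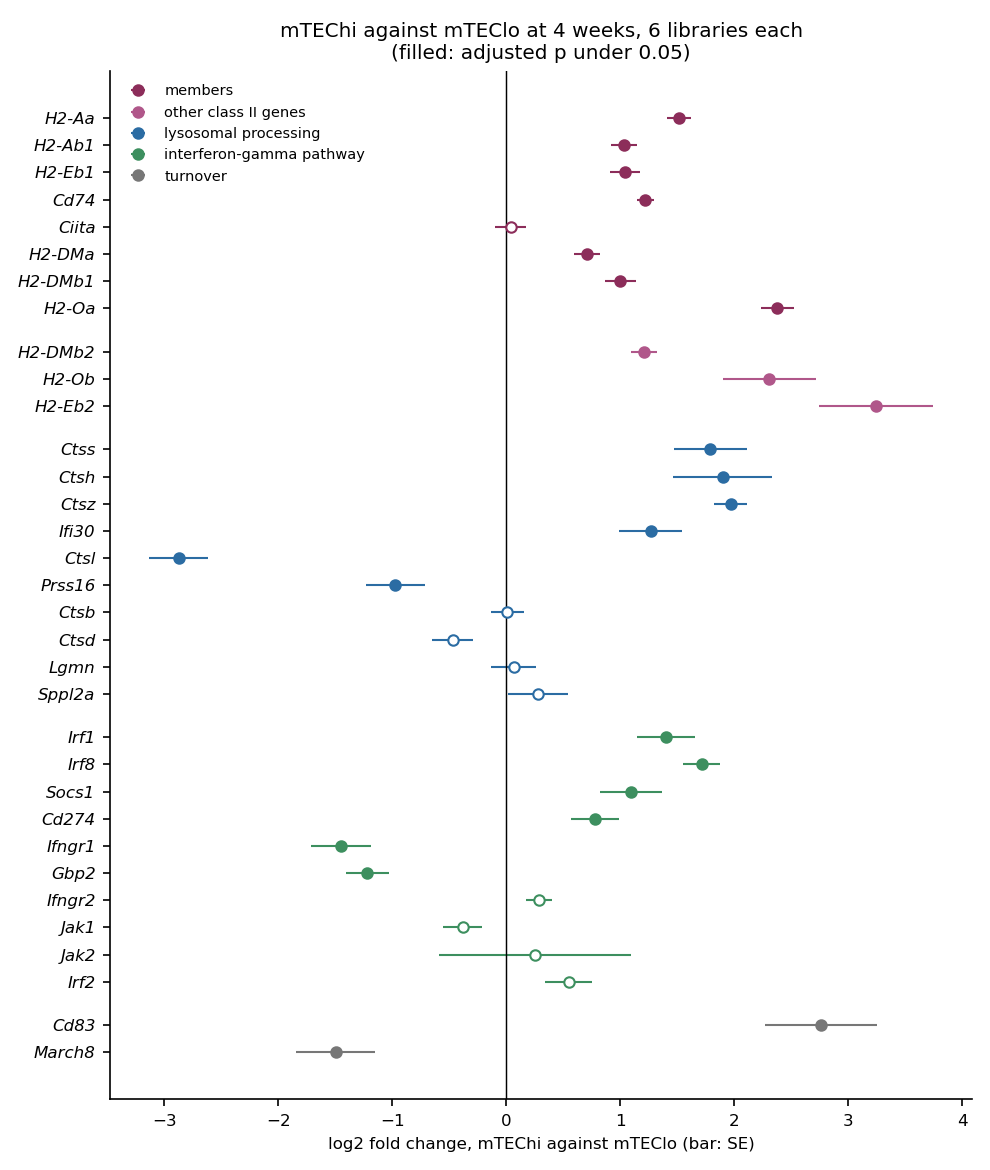
Log2 fold change of mTEChi against mTEClo (6 libraries each, 4 weeks) for the 8 genes and for fixed lists of pathway genes; bars are SE and filled points passed an adjusted p of 0.05. All members but Ciita, which lies at 0.04, passed the test to the right of 0, H2-Oa farthest, and the lysosomal and interferon-gamma genes lie on both sides.

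Other genes of the pathway moved in both directions between the mTEC subsets. The 3 further class II genes tested were all higher in mTEChi: H2-DMb2 by 1.21 ± 0.11 on the log2 scale, H2-Ob, the beta chain of H2-O, by 2.31 ± 0.41 and H2-Eb2 by 3.24 ± 0.50. Of the 10 lysosomal genes, Ctsz (1.97 ± 0.14), Ctsh (1.90 ± 0.43), Ctss (1.79 ± 0.32) and Ifi30 (1.27 ± 0.28), a thiol reductase of antigen processing, were higher, while Ctsl (−2.87 ± 0.26) and Prss16 (−0.97 ± 0.26) were lower. None of the 7 promoter factor genes was called by edgeR. Among the genes of the interferon-gamma pathway reported here, a pathway that induces Ciita in many cells, Irf8 (1.72 ± 0.16), Irf1 (1.40 ± 0.25), Socs1 (1.09 ± 0.27) and Cd274 (0.78 ± 0.21) were higher, while its receptor gene Ifngr1 (−1.45 ± 0.26) and Gbp2 (−1.22 ± 0.19) were lower. Cd83, which protects class II from ubiquitination, was higher by 2.76 ± 0.49, and March8, a ligase that directs class II to degradation, was at −1.50 ± 0.35. Cd80 and Cd40, 2 of 4 costimulation genes, were higher by 2.56 ± 0.47 and 1.60 ± 0.13. The identity of the subsets could be read from Aire (2.48 ± 0.42) and Fezf2 (1.61 ± 0.11), which were higher in mTEChi, and Ccl21a (−4.64 ± 0.31) and Krt5 (−3.37 ± 0.19), which were higher in mTEClo. Summed antigen-presenting cell markers were 1089 to 1361 CPM in mTEChi and 97.6 to 722 in mTEClo, and their part in these results was not tested.

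From P0 to 4 weeks, class II rose in cTEC. Of 8 members, 7 were higher at 4 weeks with 12.3% of all genes called higher, and the median log2 fold change was 0.66 against 0.01 over all genes tested. Cd74 rose from 20822 to 25283 CPM at P0 to 32975 to 41646 at 4 weeks (0.78 ± 0.08 on the log2 scale, edgeR adjusted p = 2.06e-05). H2-DMa rose from 247 to 413 CPM to 440 to 686 (0.85 ± 0.15, adjusted p = 0.00122). H2-Oa rose by 0.89 ± 0.16 (adjusted p = 0.00141), and H2-Aa, H2-Ab1, H2-Eb1 and H2-DMb1 by 0.55 to 0.70. In each of Cd74, H2-DMa, H2-Oa, H2-Ab1, H2-Eb1 and H2-DMb1 the 6 libraries of 4 weeks lay above the 6 of P0, while in H2-Aa the ages overlapped. The share of all genes that separated in this way is not given here. Ciita was at 230 CPM ± 81.98 (SD, n = 6) and 221 ± 26.1, a log2 fold change of 0.01 ± 0.21 (adjusted p = 0.982). Of 7 promoter factor genes 3 were lower at 4 weeks, Nfya, Nfyc and Creb1, by −0.77 ± 0.24, −0.46 ± 0.14 and −0.49 ± 0.14. Of all 13037 genes tested, 1302 were called lower. Within TXCK libraries 6 members were called and within DFCK libraries 1. Summed thymocyte markers in cTEC were 31.005 to 63.1 CPM at P0 and 548 to 2394 at 4 weeks. Summed antigen-presenting cell markers in cTEC, given above for both ages, also lay higher at 4 weeks. The part of either list in the rise was not tested.

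In mTEC, 5 of 8 members were higher at 4 weeks, with 3.64% of all genes called higher. H2-Oa moved most, from 212 to 253 CPM at P0 to 503 to 794 (1.42 ± 0.14 on the log2 scale, edgeR adjusted p = 4.46e-05). H2-Ab1 was higher by 0.67 ± 0.11 (adjusted p = 0.00175), H2-Aa by 0.65 ± 0.14, H2-DMb1 by 0.55 ± 0.11 and H2-Eb1 by 0.48 ± 0.11. Ciita (−0.05 ± 0.30) and H2-DMa (0.42 ± 0.19, adjusted p = 0.279) were not called. Cd74 at 4 weeks was 22549 CPM in replicate 3 and 58025 to 79267 in the other 5. That library had the highest H2-Aa of its group, 19492 CPM against 10574 to 13699, so that its Cd74 to H2-Aa ratio was 1.16 against 5.26 to 7.33. With all libraries Cd74 differed by 0.22 ± 0.24 from P0 (adjusted p = 0.744), and without replicate 3 by 0.40 (adjusted p = 0.00868). As that library was chosen for its level of these genes, the second value is a description and no support for a change. Within TXCK libraries 5 members were called and within DFCK libraries none by edgeR.

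The age change itself was compared between mTEC and cTEC over 24 libraries. None of the 8 members was called by edgeR, with 5.52% of all genes called in either direction, 2 members at an unadjusted p under 0.05, and 1 member called by DESeq2. Of all 17284 genes tested, 3310 had an unadjusted p under 0.05. H2-Oa changed by 0.50 ± 0.21 more in mTEC on the log2 scale (adjusted p = 0.186) and Cd74 by −0.59 ± 0.26 (adjusted p = 0.209).

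In CD31+ cells 3 of 6 members tested rose over the same interval, at a far lower level. Cd74 in CD31+ cells ranged from 14.9 to 107.3 CPM at P0 (median 49.7) and from 391.8 to 574 at 4 weeks (median 520), without overlap (3.26 ± 0.38 on the log2 scale, edgeR adjusted p = 0.000171). H2-Ab1 ranged from 10.3 to 67.5 CPM and from 77.4 to 171 (2.55 ± 0.41, adjusted p = 0.00205). H2-Aa ranged from 6.82 to 37.5 CPM and from 34.3 to 69.4, overlapping in 1 P0 library (1.87 ± 0.43, adjusted p = 0.0219). These 3 members were called with 3.19% of all genes called higher. The other 3 tested, H2-Eb1, H2-DMa and H2-DMb1, had log2 fold changes of 2.85 to 2.88 with SE of 0.97 to 1.26. Ciita (0 to 15.2 CPM at 4 weeks) and H2-Oa were too low to test. In the pathway lists 4 of 8 lysosomal genes tested (Ctsl, Ctsb, Ctsd and Lgmn) were higher at 4 weeks. Among the genes of the interferon-gamma pathway reported here, Ifngr1 and Gbp2 were higher. In gp38+CD26- cells, where Cd74 was not called, 7 of 10 lysosomal genes were higher at 4 weeks (12.9% of all genes called higher). Summed TEC markers in the 4-week CD31+ libraries were 0.0783 to 26.2 CPM with 3 of 7 genes detected, and summed antigen-presenting cell markers 1.25 to 25.97 CPM, and their part was not tested. Within TXCK and within DFCK libraries 1 member each was called.

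In the other stromal populations the counts of members called differed with the libraries entered. In Ly51+gp38- cells 4 of 7 members tested were higher at 4 weeks (6.44% of all genes), Cd74 by 3.89 ± 0.65 on the log2 scale (edgeR adjusted p = 0.00111). Its libraries ranged from 15.5 to 112.4 CPM at P0 and from 301 to 1881 at 4 weeks, where replicates 2 and 3 held 1436 and 1881. Without these libraries 2 members were called, Cd74 (2.82, edgeR adjusted p = 0.00555) and H2-Ab1 (2.74, adjusted p = 0.00637). The 4-week libraries then left held 301 to 489 CPM of Cd74. Their summed TEC markers, given above, still lay above those of CD31+ cells at 4 weeks, and the part of these markers was not tested. In gp38+CD26+ cells 5 of 6 members tested were called (3.88% of all genes), 3 within TXCK libraries, 0 within DFCK libraries and 1 by DESeq2. Without replicate 2 of 4 weeks, 4 were called, among them Cd74 by 4.16 (edgeR adjusted p = 0.00679) and H2-Ab1 by 3.59 (adjusted p = 0.0143). Of the 5 libraries then left, replicate 1 held 494 CPM of Cd74 and the others 59.4 to 87.3, against 0.177 to 22.5 at P0. Replicate 1 had the lowest summed TEC markers of its group, 120 CPM, but summed cortical TEC markers of 177 CPM against 5.37 to 31.9 in those others. Their part was not tested. In gp38+CD26- cells 1 of 7 tested was called, H2-DMb1 by 4.33 ± 1.30 (adjusted p = 0.0250, 12.9% of all genes called higher), and Cd74 differed by 0.36 ± 0.41 (adjusted p = 0.581) between 36.1 to 170 and 32.8 to 161.4 CPM. The difference of the age change between CD31+ and gp38+ cells was called by edgeR for none of the 8 members (7.61% of all genes in either direction), with 2 at an unadjusted p under 0.05 and 1 by DESeq2. Of all 14621 genes tested for this difference, 2998 had an unadjusted p under 0.05.

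Across the 14 combinations of population and age, the mean log2 profile of the 8 genes was most like that of H2-DMb2 (Pearson r = 0.991 over 14 means, among 15999 genes), followed by Fam241b (0.984), Rbm47 (0.982), Sfn (0.980) and Epcam (0.980). The members' own correlations with that profile, which includes each of them and so raises these values, ran from 0.973 for H2-Oa to 0.998 for H2-Ab1. All 14 points share the split into epithelium and other stroma, and these values are a description. Of the 10 most similar genes, 7 stayed among the 10 without the shallow gp38+CD26+ library.

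The age series resolved the non-epithelial side into cell subtypes, named by the authors. In all NETS cells of a library together, Cd74 (chr18:60803848-60812652, plus strand) stood at 0.441 CPM of summed UMIs at E12.5, 0.836 at E13.5, 3.73 and 5.57 at E16.5, 22.4 and 5.71 at P0, and 56.9 and 43.8 at 4 weeks. In endothelium it was 0.823 at E12.5, 0.860 at E13.5, 8.19 and 14.2 at E16.5, 48.0 and 18.7 at P0, and 188 and 152 at 4 weeks. From E16.5 on, each age in endothelium thus lay above the earlier ones. Endothelium of E12.5 and E13.5, 1 library each, held 3 and 19 UMIs of H2-Aa, H2-Ab1, H2-Eb1 and Cd74 together. Within the endothelium the venous and lymphatic cluster EnVL was highest at 4 weeks with 306 and 365 CPM, against 133 and 68.7 in the capillary cluster EnC and 116 and 50.3 in the arterial cluster EnA, and no library overlapped between EnVL and the others. Mesothelium was the other high class, with 238 and 569 CPM at P0 and 259 and 247 at 4 weeks, where the second P0 value came from 7 cells and the first from 228. The P0 values of all NETS cells thus came from libraries with unlike numbers of mesothelial cells, and the part of this was not tested. Capsular fibroblasts at 4 weeks held 30.5 and 17.2 CPM, medullary fibroblasts 29.6 and 21.4, and mural cells 61.1 and 42.2. As the clusters were made from these counts, differences between them were not tested.

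**Figure D3:**
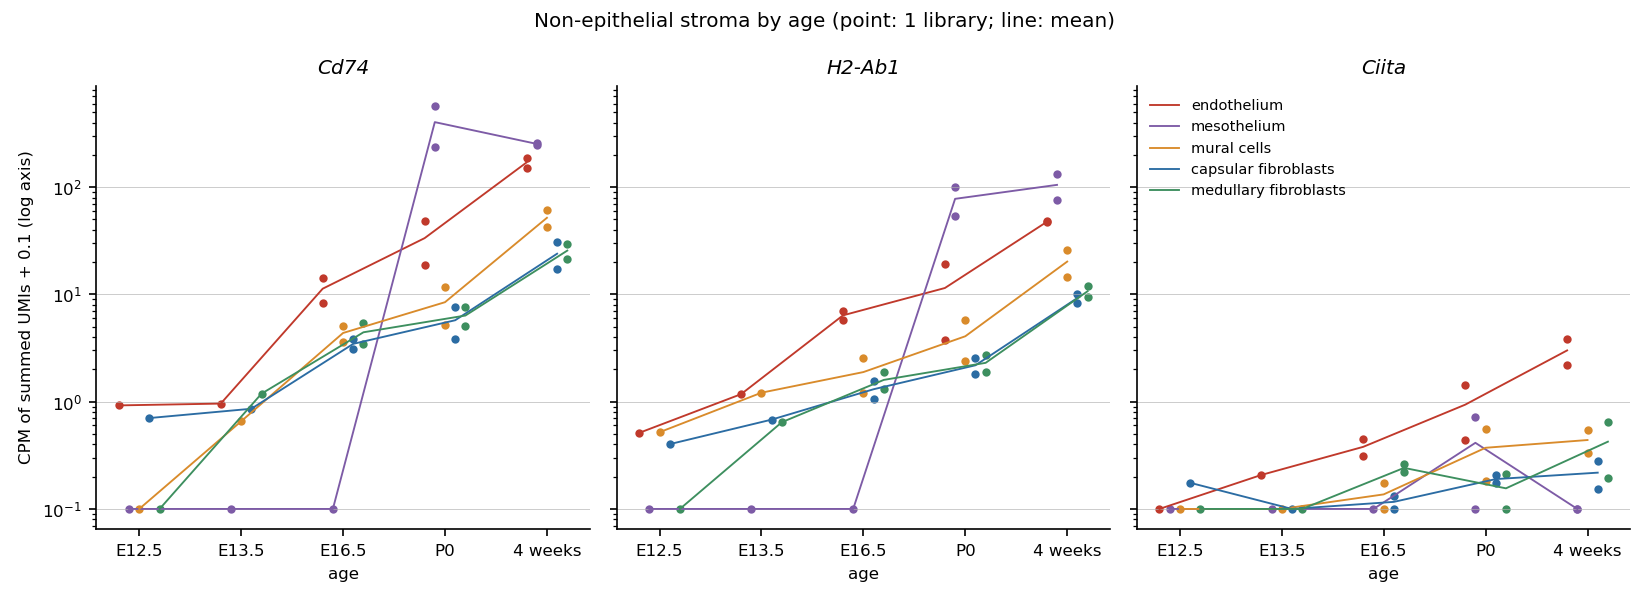
Cd74, H2-Ab1 and Ciita in non-epithelial classes of the single-cell age series from E12.5 to 4 weeks, as CPM of summed UMIs plus 0.1 on a log axis; each point is a library and lines join the means. Cd74 reaches 188 and 152 in endothelium at 4 weeks, mesothelium is the other high class, and Ciita stays at or below 3.72 in every class shown.

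Single cells differed strongly in endothelium and mesothelium. In the 4-week endothelium 52.3% of 868 cells held a UMI of H2-Aa, H2-Ab1, H2-Eb1 or Cd74, yet 71.1% of these UMIs lay in the top 10% of the cells. Of the 868 cells, 37 (4.26%) held 10 or more such UMIs, and 29 of the 37 were among the 197 EnVL cells (14.7% of them), against 6 of 521 EnC and 2 of 150 EnA cells. Of the 37 cells, 22 held UMIs of all 4 genes, 1 held a UMI of Ptprc (CD45) and 1 a UMI of Epcam. In mesothelium 41 of 235 cells (17.4%) at P0 and 31 of 189 (16.4%) at 4 weeks held 10 or more, against 7 of 1902 capsular fibroblasts, 3 of 1395 medullary fibroblasts and 2 of 1407 mural cells at 4 weeks. Of the 41 mesothelial cells, 29 held all 4 genes, 2 a Ptprc UMI and 0 an Epcam UMI. Of the 31, 23 held all 4 genes, 3 a Ptprc UMI and 0 an Epcam UMI. Over all cells of the class, a Ptprc UMI was seen in 6.80% and an Epcam UMI in 1.498% of endothelial cells at 4 weeks, in 3.40% and 1.70% of mesothelial cells at P0, and in 6.88% and 4.23% at 4 weeks. A Ptprc UMI was seen in 6.94% of capsular fibroblasts, 7.60% of medullary fibroblasts and 6.25% of mural cells at 4 weeks.

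Low counts spread over most classes at 4 weeks. A Cd74 UMI was seen in 34.2% of endothelial cells (95% exact binomial interval 31.1 to 37.5, median 5888 UMIs per cell) and in 25.4% of capsular fibroblasts (23.5 to 27.5, median 15416 UMIs). After thinning to 2000 UMIs per cell the shares were 16.8% and 4.10%, and 23.6% in EnVL cells. Ciita UMIs were seen in 15 of the 868 endothelial cells (1.73%, interval 0.970 to 2.83) and in 3 of 1902 capsular fibroblasts (0.158%, interval 0.0325 to 0.460). In mesothelium of 4 weeks Ciita was seen in 0 of 189 cells, which allows a share of up to 1.59% for cells with a UMI and sets no limit for cells that express the gene. Intervals and limits cover counting error only. Summed antigen-presenting cell markers in endothelium were 23.0 to 30.6 CPM at P0 and 29.2 to 39.7 at 4 weeks, and summed TEC markers 15.4 to 19.1 and 33.03 to 62.1 CPM. Their part in the low counts was not tested.

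H2-Eb1 and H2-Aa were placed differently in pericytes and endothelium. At P0, H2-Eb1 stood at 17.2 and 12.6 CPM of summed UMIs in the pericyte cluster Pc and at 8.51 and 3.004 in endothelium, whereas H2-Aa stood at 3.88 and 3.002 in pericytes and at 13.96 and 9.01 in endothelium. The 2 libraries of each class did not overlap for either gene, and pericytes were the higher class for H2-Eb1 and the lower for H2-Aa. In bulk at P0, H2-Eb1 likewise ranged from 11.7 to 26.9 CPM in Ly51+gp38- cells and from 0 to 8.30 in CD31+ cells, without overlap, while H2-Aa ranged from 0 to 17.5 and from 6.82 to 37.5. By 4 weeks the H2-Eb1 values of the single-cell libraries were 28.7 and 32.6 in pericytes and 27.004 and 23.99 in endothelium. These differences between cell types were not tested.

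The age contrast could be tested in 3 classes, with all 8 libraries in 1 fit. In endothelium 4 of 7 members tested were higher at 4 weeks than at P0 (11.5% of all genes called higher). These were H2-Aa (1.86 ± 0.29 on the log2 scale, edgeR adjusted p = 0.00233), H2-Ab1 (1.9998 ± 0.47, adjusted p = 0.0155), H2-Eb1 (2.08 ± 0.38, adjusted p = 0.00499) and Cd74 (2.28 ± 0.34, adjusted p = 0.00183). Without the first 4-week library 2 members were called, and 3 without the second. In the same endothelial sums Ptprc went from 3.41 and 1.33 CPM at P0 to 18.3 and 5.91 at 4 weeks, and Krt8 from 5.79 and 3.34 to 23.6 and 15.3. From E16.5 to P0, 2 of 7 were higher (12% of all genes), H2-Aa by 1.55 ± 0.33 and Cd74 by 1.38 ± 0.38 (adjusted p = 0.0249), but 0 without the first P0 library and 5 without the second. Ptprc was at 0.630 and 0.785 CPM in endothelium at E16.5, and Cd52, a further leukocyte gene, went from 0.840 and 1.92 at E16.5 to 11.6 and 3.34 at P0. The part of haematopoietic or epithelial transcripts in the endothelial values was not tested. In capsular fibroblasts 6 of 7 were higher at 4 weeks (23.7% of all genes), Cd74 from 7.57 and 3.71 CPM to 30.5 and 17.2 (2.13 ± 0.36, adjusted p = 0.00243) and H2-Oa by 2.75 ± 0.79 (adjusted p = 0.0243). Without the second P0 library 4 members were called. In medullary fibroblasts 5 of 7 were higher (26.8%), Cd74 from 7.49 and 5.01 CPM to 29.6 and 21.4 (2.05 ± 0.23, adjusted p = 3.11e-05). H2-DMa was not called in either fibroblast class (0.32 ± 0.27 and −0.67 ± 0.36). The classes pool clusters whose shares differed between the ages: CapFb1b was 37.3% of capsular fibroblasts at P0 and 19.4% at 4 weeks, CapFb2b 10.3% and 20.6%, and MedFb1a 16.05% and 9.25% of medullary fibroblasts. Within clusters, both 4-week libraries lay above both P0 libraries for Cd74 in 6 of 7 capsular and 4 of 4 medullary clusters, with CapFb1a the exception (19.1 and 4.23 CPM at P0, 29.1 and 12.7 at 4 weeks).

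Between E16.5 and P0 edgeR called 0 of 7 members in capsular fibroblasts (22.8% of all genes in either direction, 1 member at an unadjusted p under 0.05, 0 by DESeq2, 3 called without the second P0 library) and 0 of 7 in medullary fibroblasts (26.4%, 0 at an unadjusted p under 0.05, 0 by DESeq2). Over all genes, 6101 of 15894 and 5533 of 14518 had an unadjusted p under 0.05 in capsular and medullary fibroblasts. Beside these changes, summed TEC markers went from 7.796 and 17.3 CPM at P0 to 22.9 and 35.4 at 4 weeks in capsular fibroblasts, and summed antigen-presenting cell markers from 10.6 and 14.1 to 13.3 and 21.4. Ptprc in all NETS cells stood at 4.18 and 2.55 CPM at P0 and 13.96 and 6.58 at 4 weeks. The part of either in the fibroblast counts was not tested. From P0 to 4 weeks, 8 of 8 lysosomal genes tested were higher in capsular fibroblasts, 9 of 9 in medullary fibroblasts, and 6 of 9 with 1 lower in endothelium, where 23.7%, 26.8% and 11.5% of all genes were called higher. From E16.5 to P0 the list had 3 higher and 1 lower of 8, 3 higher of 9, and 2 higher and 1 lower of 9.

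In the newborn data the epithelium was captured beside the other stroma. Cd74 in cortical TEC was 5715, 7277 and 9273 CPM of summed UMIs in the 3 WT libraries and 6197, 6683 and 4287 in the 3 Tbx1+/-Crkl+/- libraries. In medullary TEC it was 11972, 18291 and 24211 in WT and 11416, 12127 and 7319 in mutants. The WT values reached higher in both classes, but the genotypes overlapped. H2-Oa in medullary TEC was 144.2, 236 and 249.995 CPM in WT and 268, 167.8 and 109 in mutants, and in cortical TEC it lay between 65.9 and 102 over all 6.

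In fibroblasts and endothelium of the newborn, Cd74 stood at a fraction of the TEC level similar to that of epithelial genes. For Cd74 the mean over 6 libraries was 10.1% ± 6.10 (SD) in capsular fibroblasts, 10.7% ± 6.20 in medullary fibroblasts and 17.0% ± 7.18 in endothelium. The genotypes lay apart, at 5.51% ± 0.645 (SD, n = 3) in WT and 14.8% ± 5.34 in mutants in capsular fibroblasts, 6.09% ± 1.25 and 15.2% ± 5.67 in medullary fibroblasts, and 11.7% ± 1.84 and 22.3% ± 6.44 in endothelium. Epcam split likewise, at 4.60% ± 0.812 and 13.4% ± 6.29 in capsular fibroblasts. Over the 6 libraries, epithelial genes outside the class II pathway stood at similar fractions, Epcam at 8.99%, 10.1% and 17.7%, Krt8 at 9.81%, 9.08% and 15.2%, and Psmb11, a proteasome subunit of cTEC, at 12.1%, 9.27% and 19.3%. Cells labelled Thy, whose Ptprc of 942 to 1401 CPM marks them as haematopoietic, held 1166 to 2603 CPM of Cd74. A Cd74 UMI was present in 79.8% of 1995 WT capsular fibroblasts (median 4449 UMIs per cell), in 79.2% of 865 WT endothelial cells (median 2802) and in 82.7% of 208 WT cells labelled Thy (median 2510), against 99.9% of 3025 cortical TEC (median 3969). Median depth differed between these classes, and their levels lay further apart than their shares. In WT, Cd74 stood at 19.8% ± 2.45 (SD, n = 3) of the TEC level in cells labelled Thy. In WT capsular fibroblasts it stood at 5.51% and in WT endothelium at 11.7%. Whether the Cd74 UMIs of the non-epithelial classes are transcripts of those cells was not tested. In the fresh age series at P0, where epithelium had been depleted by sorting, a Cd74 UMI was present in 6.57% of 3880 capsular fibroblasts at a median of 13526 UMIs. Ciita stood at 5.65% of the TEC level in capsular fibroblasts, 5.28% in medullary fibroblasts and 11.5% in endothelium.

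**Figure D4:**
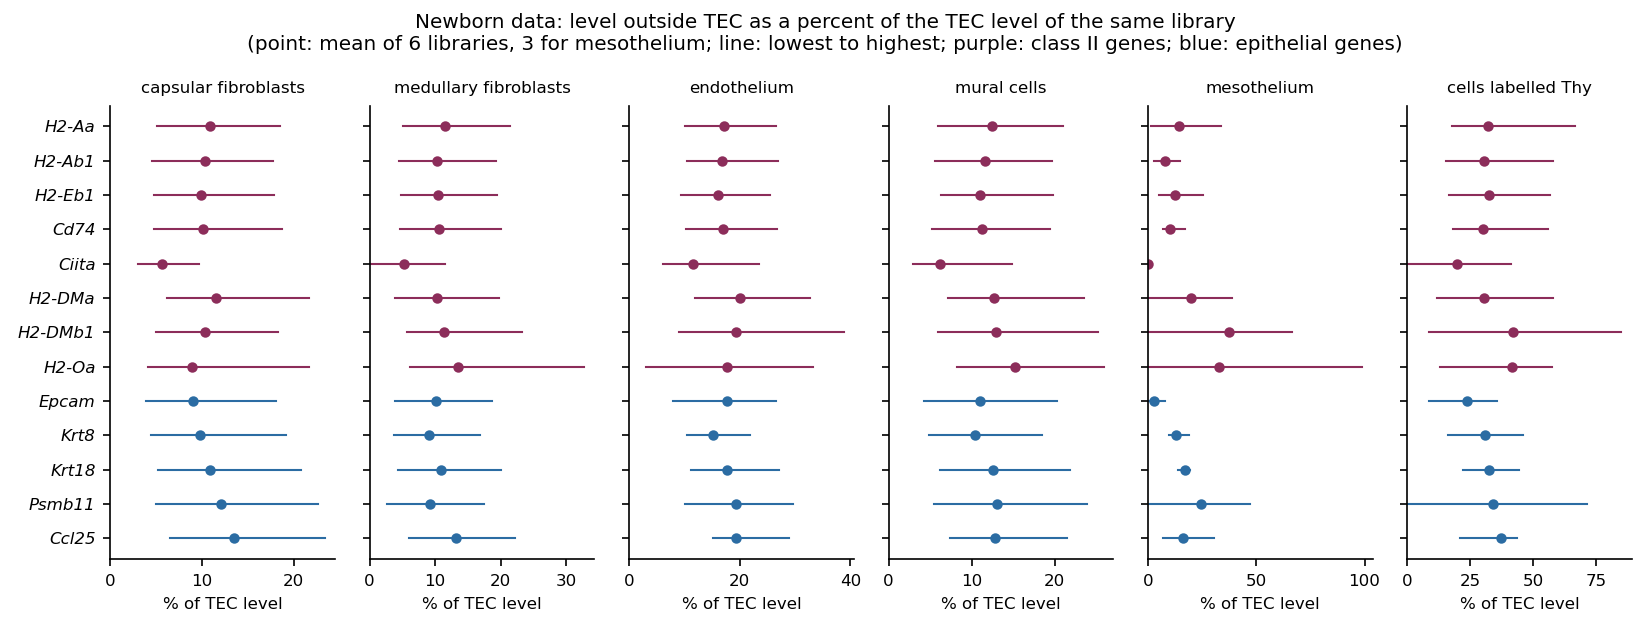
Level of the 8 genes and of 5 epithelial genes in each non-epithelial class of the newborn single-cell data, as a percent of the level in all TEC of the same library; points are means of 6 libraries (3 for mesothelium, both genotypes together) and lines run from the lowest to the highest. In capsular fibroblasts Cd74 lies at 10.1% and Epcam at 8.99%, with Ciita lower at 5.65%. Means in mesothelium spread more widely, from 0% for Ciita to 37.2% for H2-DMb1. They rest on few cells, since only 3 of the 6 libraries held at least 5 mesothelial cells. Over those 3 libraries H2-DMb1 ran from 0% to 66.6%.

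No member was called between genotypes in any of 6 classes by edgeR. In cortical TEC 0 of 12390 genes were called (0%), with 0 members at an unadjusted p under 0.05 and 0 by DESeq2. In medullary TEC 0.154% of all genes and none of the members were called, with 4 members at an unadjusted p under 0.05 and 0 by DESeq2. Of all 7166 genes tested in that class, 811 had an unadjusted p under 0.05. In intertypical TEC 0% of all genes were called, with 0 members at an unadjusted p under 0.05 and 0 by DESeq2. The median log2 fold change of the members, mutant against WT, was −0.36 in cortical, −0.60 in medullary and −0.26 in intertypical TEC, beside 0.03, 0.02 and 0.02 over all genes. Cd74 was at −0.43 ± 0.37 (adjusted p = 0.702) in cortical and −0.91 ± 0.37 (adjusted p = 0.388) in medullary TEC, and Ciita at −0.08 ± 0.22 and −0.13 ± 0.33.

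In the non-epithelial classes the values lay in the opposite direction. By edgeR, 0 of 8 members were called in capsular fibroblasts (0.065% of all genes, 6 members at an unadjusted p under 0.05, 1 by DESeq2), 0 of 7 in medullary fibroblasts (0.0519%, 7 and 0) and 0 of 6 in endothelium (0.0126%, 2 and 0). Over all genes, 840 of 10761, 782 of 9627 and 273 of 7957 had an unadjusted p under 0.05 in these 3 classes. DESeq2 called 14, 5 and 1 of all genes there. Cd74 in capsular fibroblasts was 393, 461 and 479 CPM in WT and 566, 1153 and 853 in mutants, and every mutant library lay above every WT library (0.91 ± 0.28 on the log2 scale, edgeR adjusted p = 0.359). In medullary fibroblasts its log2 fold change was 0.91 ± 0.27 (adjusted p = 0.299) and in endothelium 0.45 ± 0.29 (adjusted p = 0.999). Epithelial genes moved beside it in the capsular fibroblasts, Epcam at 20.2, 32.7 and 26.2 CPM in WT and 28.4, 76.0 and 56.4 in mutants, and Krt8 at 133.9, 171 and 133 against 177, 325 and 269. Over all newborn NETS cells, 8.04% of 6553 WT and 16.004% of 5280 mutant cells held 10 or more UMIs of the 4 chain and invariant chain genes. A Ptprc UMI was seen in 0.351% of WT and 1.71% of mutant capsular fibroblasts. Median UMIs per cell were 2577, 3631 and 4686 in the WT libraries and 2551, 2391 and 2506 in the mutants. The part of epithelial or haematopoietic transcripts and of depth in the genotype values was not tested.

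**Figure D5:**
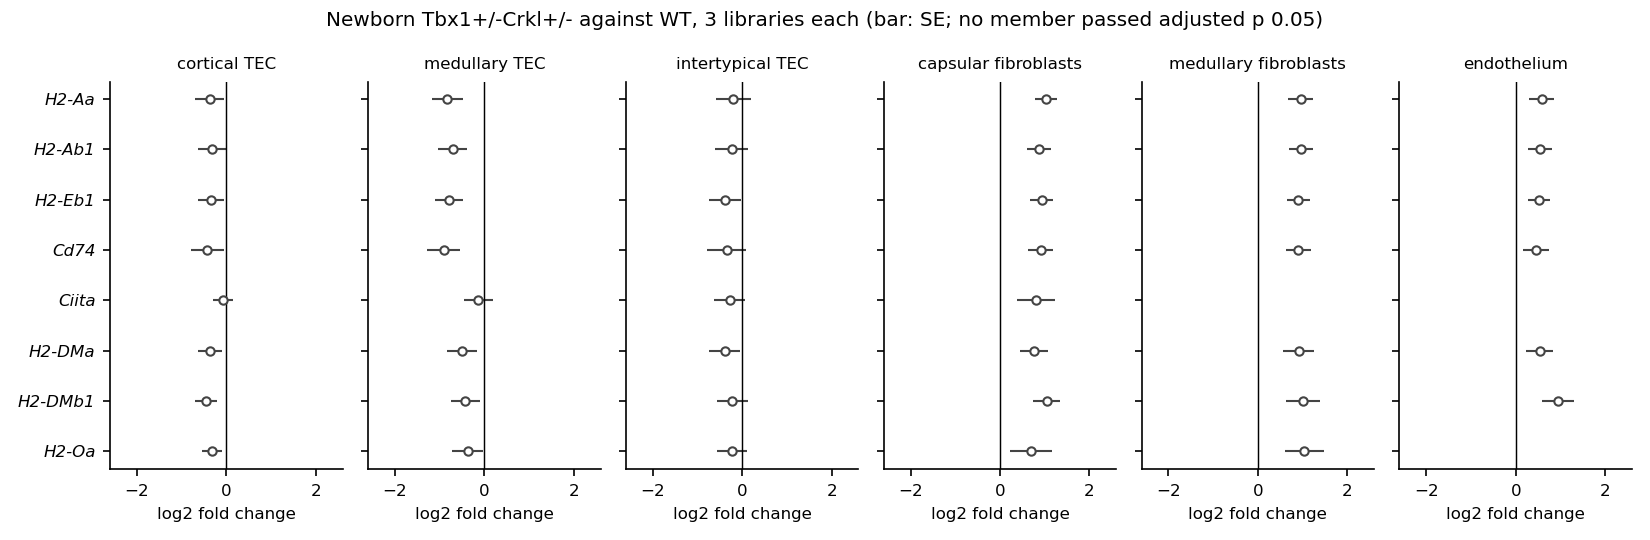
Log2 fold change of Tbx1+/-Crkl+/- against WT newborn libraries (3 each) for the members in 6 cell classes, with SE bars. Cd74 is at −0.43 and −0.91 in cortical and medullary TEC and at 0.91 in both fibroblast classes, and no member passed an adjusted p of 0.05.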

How the data were processed

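Per the labels and the study's methods, single-cell libraries were made with the 10x Genomics platform, processed with Cell Ranger 3.1.0, and filtered by the authors for genes per cell and mitochondrial share, with doublets called by DoubletFinder and haematopoietic clusters removed. No further doublet caller was run. The deposited single-cell tables held raw UMI counts per cell with the authors' cluster names, and the deposited bulk table raw read counts per gene and library, which the authors obtained by alignment and gene counting. The submitters' processing notes list STAR 2.5.3a, HTSeq, mm10 and GRCh38, with no role given here. Entries of no gene took 7.81% to 29.4% of bulk counts and were left out.

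Bulk counts were scaled to CPM of gene counts. UMI counts were summed per library and cell class, since cells are not replicates, and a class was tested only with at least 20 cells in each library. Genes with low counts were removed with filterByExpr, libraries were scaled by TMM, and groups were compared with the quasi-likelihood test of edgeR 4.0.16 in R 4.3.3 over all genes, with Benjamini-Hochberg adjustment and a threshold of 0.05. Log2 fold changes are given with their SE. Scripts were tested on simulated data. Shares of cells carry exact 95% binomial intervals and were repeated after thinning each cell to 2000 UMIs, which kept 99.7% of cells in the age series and 76.8% in the newborn data. Sums of marker genes used fixed lists. The likeness of other genes was Pearson's r to the mean log2(CPM + 1) of the 8 genes, each standardised, over 14 means, for genes with a mean CPM of at least 1, and the 10 most similar were kept. Sequences came from RefSeq tables of GRCm38.p6. Promoter entries were used for 5 of the 8 genes.

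The 8 genes and the pathway and marker lists were chosen with earlier results of these data known, and genes of the pathway were named by those lists where they passed the threshold. Not every gene of these lists is reported here. Alternatives were DESeq2 1.42.0, RLE size factors in edgeR, TMM-scaled or per-cell mean CPM and thinned counts for levels, the age series without E12.5 and E13.5, no filter on low counts, 1 fit over all 84 bulk libraries, the title prefix as a term and each prefix alone, a replicate block, each replicate left out in the single-cell data, and gp38+CD26+ 4 weeks replicate 2 left out in bulk. Leaving out mTEC 4 weeks replicate 3, Ly51+gp38- 4 weeks replicates 2 and 3, or gp38+CD26+ 4 weeks replicates 1 and 2, and a replicate block from the numbers in bulk titles, were added after seeing the data. Of these libraries, mTEC replicate 3 and gp38+CD26+ replicate 1 were picked for their own class II values.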

Additional observations from a re-analysis of the deposited data

Results flagged for a closer look

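For each of the 8 genes in 14 combinations of population and age, the 6 bulk values were searched for a library far from the others (Dixon's 95% criterion on the gap to the nearest library over the range). A total of 20 groups held such a library. Chance gives about 1 in 20 groups where values are normally distributed. Many of these CPM were near 0 and need not be so distributed, so that rate is no benchmark for the total. In 2 of the 20 the other 5 libraries were at 0, so that any library with a count met the criterion (Ciita in gp38+CD26+ and H2-Oa in CD31+ cells at P0). Of these, 8 came from gp38+CD26+ replicate 2 at 4 weeks, the library of 25702 counts, in which H2-Aa was 4591 CPM, H2-Ab1 18714, H2-Eb1 4124, Cd74 36340, Ciita 195, H2-DMa 584, H2-DMb1 311 and H2-Oa 155.6.

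At 4 weeks, mTEC replicate 3 stood apart in H2-Aa, the highest of its group at 19492 CPM, and in Cd74, the lowest at 22549 CPM. The mTEClo replicate 1 was high in H2-Aa with 6998 CPM, and mTEChi replicate 6 was high in H2-DMa with 438 CPM. The CD31+ replicate 1 was low in H2-Ab1 with 77.4 CPM, and Ly51+gp38- replicate 2 was high in H2-DMa with 33.1 CPM.

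The 6 remaining cases, these 2 included, were in libraries numbered replicate 5 at P0. Among CD31+ cells H2-Ab1 was 67.5 CPM and H2-Oa 1.52 CPM, both the highest. Among gp38+CD26+ cells H2-Ab1 was 19.8 CPM, Ciita 0.710 CPM and H2-DMa 5.44 CPM, all the highest. In mTEC, Ciita was the lowest at 94.3 CPM. The labels give bulk libraries no replicate number, so these numbers follow the order of the samples. Sample numbers in the titles run in the same steps across the populations of an age, and the cause was not tested.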

How the results depend on the processing

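Of the counts of members called, 424 values under an alternative stayed within 1.5 times the reported count and 38 did not. Higher and lower calls entered separately, and many counts were 0 both as reported and under the alternative, which was scored as staying. The tally therefore does not measure how stable the counts above 0 were. For single members, 1500 values kept direction and call, 97 lost the call, 41 gained it, 6 reversed, and 63 changed sign without a call either way. Of the levels, 275 moved by less than 1 SD and 37 by more. Counts under an alternative are given without the share of all genes called in the same fit. A change in them need not be particular to the members. The cause was not tested for any change.

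A fit over all 84 libraries, which shares 1 estimate of the spread, called 1 member in mTEChi against mTEClo, 0 with age in cTEC, 0 with age in mTEC, 5 with age in CD31+ cells, 0 in mTEC against cTEC at P0, 1 at 4 weeks, and 2 as lower in the age change of CD31+ minus gp38+ cells. DFCK libraries alone (3 against 3) called 1 with age in cTEC, 0 in mTEC, 1 in CD31+, 1 in Ly51+gp38- and 0 in gp38+CD26+ cells, and 3 in mTEC against cTEC at 4 weeks. TXCK libraries alone called 1 with age in CD31+ cells, 2 in Ly51+gp38-, 3 in gp38+CD26+ and none (0) in gp38+CD26- cells, and 1 as lower in mTEC against cTEC at 4 weeks. DESeq2 called 5 with age in CD31+ cells, 1 in gp38+CD26+ cells, 0 as higher in CD31+ against gp38+ cells at 4 weeks, 1 in each age difference (higher in mTEC minus cTEC, lower in CD31+ minus gp38+) and 1 between genotypes in capsular fibroblasts. Without the filter on low counts 1 was lower in mTEC against cTEC at 4 weeks, 0 higher in CD31+ against gp38+ cells, 1 higher in mutant capsular fibroblasts and 4 higher in endothelium from E16.5 to P0.

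Without Ly51+gp38- replicates 2 and 3, 2 were called with age. Replicate 1 of gp38+CD26+ cells was left out for its own class II level (Cd74 at 494 CPM), as was mTEC replicate 3, so these values were selected on the outcome and support nothing. Without gp38+CD26+ replicates 1 and 2, 3 were called with age and 7 as higher in CD31+ against gp38+ cells, where H2-Aa turned to 1.59, H2-Ab1 to 1.25, H2-Eb1 to 1.02 and Cd74 to 2.34 on the log2 scale. Of the single bulk libraries, mTEC 4 weeks replicate 3 left out gave 1 member lower in mTEC against cTEC at 4 weeks, and gp38+CD26+ replicate 2 left out gave 4 higher in CD31+ against gp38+ cells, where H2-Ab1 turned to 0.94 and Cd74 to 1.83. With each NETS library left out in turn the counts ranged from 4 to 6 with age in capsular and 5 to 6 in medullary fibroblasts, 0 to 3 from E16.5 to P0 in capsular fibroblasts, and in endothelium 2 to 5 from P0 to 4 weeks and 0 to 5 from E16.5 to P0.

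In the single-cell data replicate numbers were not taken as pairs, as deviations from group means correlated in both signs (0.145, 0.0690 and −0.402 in newborn capsular fibroblasts). With so few libraries per group this cannot exclude pairing, and the newborn WT animals were littermates of the mutants. With a replicate block, 4 members were called in endothelium from E16.5 to P0. Bulk titles give no replicate number, but their sample numbers run in equal steps across populations of an age. Over all 43 pairs of populations of the same age, libraries at the same step correlated by −0.125 to 0.132 in deviation (median 0.0196), and in 0 pairs did every correlation exceed 0.1. The steps were not taken as pairs in the reported tests. Such correlations cannot exclude that libraries at the same step came from the same animals. A replicate block on the steps, added after seeing the data, called 7 members in mTEChi against mTEClo, 6 in mTEC against cTEC at P0 and 4 at 4 weeks, where Cd74 and H2-DMb1 were no longer called.

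Genes at 0 in a whole group had fitted changes that depend on the prior count. Counts of Ciita and H2-Oa in non-epithelial cells were low or 0, where absence and depth cannot be told apart, and the newborn libraries held fewer UMIs per cell than the age series.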
